A study of Mus musculus with 14 samples.

Results

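Tppp, Cables1, Adra1d and Plag1 are 4 genes of the 43472 measured in wounded mouse fibroblasts, and all of them were at lower levels after 5 h of autologous micrograft (AMG) treatment. They were picked from the larger falls at 5 h in replicates 2 to 4. Those values are therefore given as a description with no test, and nothing is supported by them. RNA was sequenced from 14 libraries of primary fibroblasts grown from the tail tips of C57BL/6 mice and wounded by scratching the cell layer, either left untreated or given AMG. AMG is an extract of mechanically disrupted mouse skin in saline, passed through a filter and added to the growth medium at a dilution of 1:10. Replicate 1 has 1 untreated and 1 AMG-treated library at each of 1, 5, 12 and 24 h. Replicates 2, 3 and 4 add 3 untreated and 3 AMG-treated libraries at 5 h. The strain, the tail tip source and the scratch are common to all 14 libraries. The animals' age, whether replicates came from different animals, and whether untreated cells received saline are not given in the sources used here.

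The 4 genes encode proteins with different jobs. Tppp encodes the tubulin polymerization-promoting protein, which binds and bundles microtubules and is best known from oligodendrocytes, the myelin-forming cells of the brain. Cables1 encodes an adaptor that links cyclin-dependent kinases to the tyrosine kinases that phosphorylate them and restrains cell growth. Adra1d encodes a receptor for noradrenaline and adrenaline that signals through Gq proteins, phospholipase C and calcium, and is known for the contraction of arteries. Plag1 encodes a zinc finger transcription factor of fetal growth that activates the gene for an insulin-like growth factor, Igf2. Migration of fibroblasts into a scratch involves microtubules and receptor signaling, and whether these 4 genes take part in it was not tested.

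The promoter of Tppp, the gene with the largest fall of the 4, is given here from RefSeq (GRCm38.p6, the assembly of mm10, chr13:74009169-74009468, plus strand, 5′ to 3′). It covers 250 bases before and 50 after the start of the gene in RefSeq. This start differs slightly from the GENCODE start given with the loci. Capitals mark the GC boxes, written GGGCGG, which transcription factors of the Sp family bind.
Tppp promoter: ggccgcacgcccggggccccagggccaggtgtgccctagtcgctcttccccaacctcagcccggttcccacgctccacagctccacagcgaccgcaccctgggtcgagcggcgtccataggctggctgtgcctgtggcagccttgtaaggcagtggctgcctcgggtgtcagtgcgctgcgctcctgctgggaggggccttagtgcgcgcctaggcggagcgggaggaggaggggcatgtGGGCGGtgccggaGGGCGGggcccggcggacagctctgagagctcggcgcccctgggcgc
This stretch is 73.3% G and C, against a median of 52.7% over 32851 mouse promoters of the same length. It holds 2 GC boxes, both on the plus strand, and 35.7% of all promoters hold at least 1 on either strand. No match to TGANTCA, the letters of an AP-1 site, to CCAAT or to TGACNNNGC, the core of an antioxidant response element, was found on either strand, while 7.81%, 37.4% and 12.4% of promoters hold these. A match in letters is a description of the window and does not show binding.

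In the mm10 build the genes lie on 4 chromosomes and all are annotated as protein-coding. Tppp (ENSMUSG00000021573.15) lies on the plus strand of chromosome 13, from 74009407 to 74035753. Cables1 (ENSMUSG00000040957.15) lies on the plus strand of chromosome 18, from 11839220 to 11945630. Adra1d (ENSMUSG00000027335.9) lies on the minus strand of chromosome 2, from 131545850 to 131562283. Plag1 (ENSMUSG00000003282.9) lies on the minus strand of chromosome 4, from 3900996 to 3938423. Their merged exons span 5102 bases in Tppp, 3839 in Cables1, 1899 in Adra1d and 8487 in Plag1.

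Between 12545537 and 34696529 reads were counted per library, and 3 reads corresponded to a normalized count of 1.62 to 5.22. A normalized count is the read count divided by a size factor of the library. The summed level of 9 fibroblast markers at 5 h was 447877 to 626065 normalized counts in untreated and 350882 to 453651 in AMG-treated replicates 2 to 4. Of the 8 markers of Schwann cells and glia, Sox10, Erbb3, Foxd3 and Gfap were under 10 in every library, and the sum was 121 to 249.7 in untreated and 111 to 268 in treated libraries. The sum of 8 smooth muscle and pericyte markers, some of which cultured fibroblasts also express, was 168622 to 184615 and 154888 to 182093, and in replicate 1 at 24 h it was 72036 untreated against 17369 treated. The sum of 8 keratinocyte markers was 148 to 282 untreated against 92.6 to 144 treated, with Krt5, Krt14, Krt1 and Dsg3 under 10 in every library and most of the sum from Dsp. The sums of 6 endothelial markers (16.8 to 239 and 8.91 to 116, 4 under 10 in every library) and of 7 leukocyte markers (86.3 to 356 and 86.5 to 237, 2 under 10) were low in both groups. The sum of 5 cartilage markers was 904 to 25902 and 764 to 15533, mainly Col2a1 and Comp, and that of 7 skeletal muscle markers 3125 to 7630 and 1912 to 5781, mainly Acta1, with 5 of the 7 under 10 in every library. Ribosomal protein genes took 7.0% of reads in the untreated 5 h library of replicate 1 and 5.10% in its AMG-treated 1 h library, against 2.27% to 3.47% in the other 12 libraries. Within replicates 2, 3 and 4 at 5 h the share was 2.40%, 2.82% and 2.27% untreated and 3.4%, 3.15% and 3.47% treated, so it was higher in all 3 treated libraries. The part of these differences in the results was not tested. In bulk samples, fewer cells of a type and less RNA per cell cannot be told apart.

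At 5 h, Tppp was measured in untreated replicates 2, 3 and 4 at normalized counts of 305.8, 129 and 272, from 278, 93 and 503 reads. In the AMG-treated libraries of the same numbers it was 44.5, 21.3 and 27.1, from 35, 26 and 24 reads. The highest treated value lay 2.91-fold below the lowest untreated value, and untreated replicate 3 was the low one of its group. The mean went from 236 ± 93.6 to 31.0 ± 12.1 (SD, n = 3), so that 13.1% of the untreated level was left. On the log2(normalized count + 1) scale, used for every difference of group means below, the difference was -2.86. The log2 ratios of the 3 pairs were -2.75, -2.55 and -3.28, with an SD of 0.38, the smallest spread among the 4 genes.

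Cables1 was measured at 96.8, 84.9 and 97.9 normalized counts in untreated replicates 2, 3 and 4, and at 14.0, 18.0 and 7.91 upon AMG treatment. The treated values rest on only 11, 22 and 7 reads, against 88, 61 and 181 in the untreated libraries. The untreated libraries were nearly level, with a coefficient of variation of 7.71%, and the groups were 4.71-fold apart at their nearest values, the widest gap of the 4 genes. The mean went from 93.2 ± 7.19 to 13.3 ± 5.10 (SD, n = 3), which left 14.3%. The log2 difference was -2.78, with pair ratios of -2.71, -2.17 and -3.47.

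Adra1d, the most abundant of the 4, was measured at 979, 749 and 431 normalized counts in untreated cells and at 86.5, 197 and 74.5 in treated cells. The order of the replicates differed between the groups, because untreated replicate 4 was the lowest of its group and treated replicate 3 the highest of its own. The nearest values of the groups were still 2.19-fold apart. The mean went from 719.7 ± 275 to 119 ± 67.4 (SD, n = 3), leaving 16.6%. The log2 difference was -2.64 and the pair ratios were -3.49, -1.92 and -2.52, with an SD of 0.79, the widest spread of the 4.

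Plag1 had the smallest difference. It was measured at 47.3, 61.3 and 85.5 normalized counts in untreated cells and at 11.5, 38.5 and 31.6 in treated cells, from 43, 44 and 158 reads and from 9, 47 and 28 reads. Treated replicate 3 came within 1.23-fold of untreated replicate 2, so that the groups only just separated. The mean went from 64.7 ± 19.3 to 27.2 ± 14.1 (SD, n = 3), leaving 42.1%. The log2 difference was -1.34, with pair ratios of -1.96, -0.66 and -1.41. The log2 difference was -0.83 without treated replicate 2, with untreated replicate 2 kept.

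**Figure D1:**
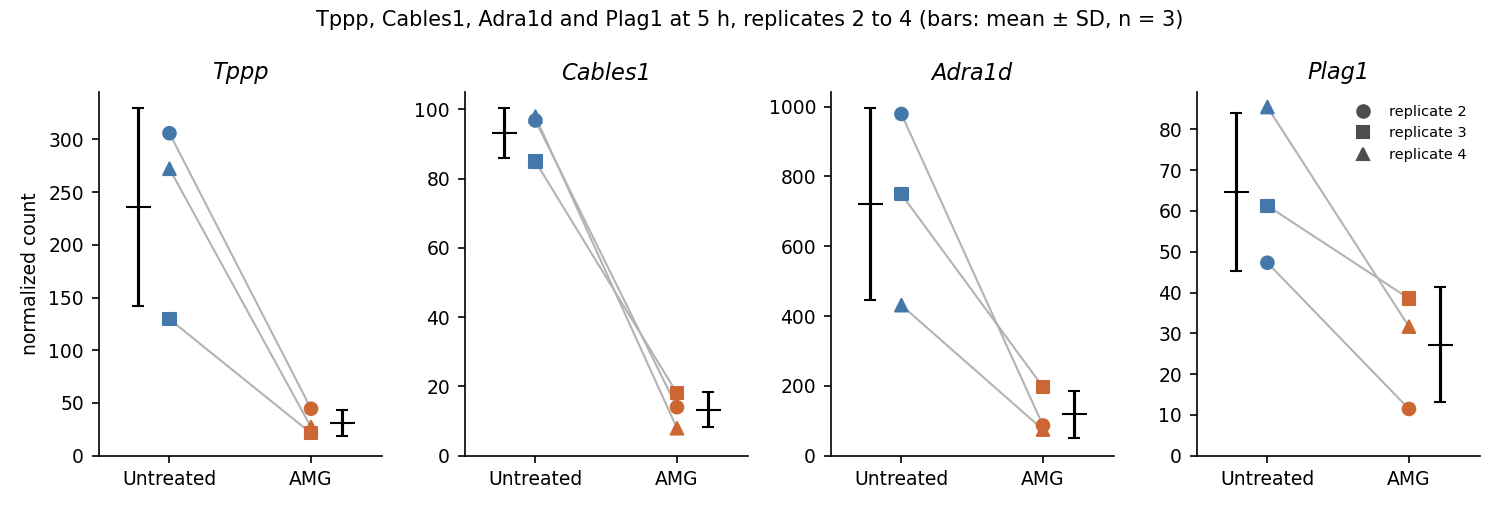
Normalized counts of Tppp, Cables1, Adra1d and Plag1 at 5 h in replicates 2 to 4 on linear axes that start at 0, with grey lines joining libraries of the same replicate number and bars giving the mean ± SD (n = 3). Every line descends from untreated to AMG, the groups of Cables1 lie farthest apart, and those of Plag1 nearly meet (38.5 against 47.3).

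All 12 pairs were lower in the treated library, and the groups did not overlap for any of the 4 genes. Of the 13096 genes whose mean normalized count reached 10, 13.6% had all 3 treated values below all 3 untreated values. Since this contrast chose the 4 genes, nothing is read from the comparison. In the order of falls among those 13096 genes, Tppp was at rank 12, Cables1 at rank 14, Adra1d at rank 17 and Plag1 at rank 285. Tppp stood between Hpgd (-2.89) and Scel (-2.84), Cables1 between Scel and Atp12a (-2.78), Adra1d between Sh3rf2 (-2.77) and Dhrs3 (-2.64), and Plag1 between Pcdhgb6 (-1.34) and Tnks (-1.34). No fixed threshold divides the 4 genes from these.

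Per kilobase of exon, the untreated means were 379 normalized counts for Adra1d, 46.2 for Tppp, 24.3 for Cables1 and 7.62 for Plag1. Adra1d stood clear of the others and Plag1 stood below them, whereas Tppp and Cables1 met, since the lowest Tppp library was at 25.4 and the highest Cables1 library at 25.5. In treated cells the means per kilobase were 62.8 for Adra1d, 6.07 for Tppp, 3.47 for Cables1 and 3.21 for Plag1. The ranges of the last 3 overlapped there, at 4.18 to 8.73, 2.06 to 4.70 and 1.35 to 4.54. The order was the same in both groups, but in treated cells Tppp, Cables1 and Plag1 could not be ordered beyond their spread.

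The 4 genes were chosen from replicates 2 to 4, but with earlier results of these data known. Replicate 1 offers a further look at 5 h, with 1 library a group and therefore no test. Its intervals cover counting error only. Cables1 was at 134 normalized counts (82 reads) untreated and 27.9 (36 reads) treated, a log2 ratio of -2.23 (95% counting interval -2.88 to -1.69). Adra1d was at 395 (241 reads) and 111 (143 reads), a log2 ratio of -1.83 (interval -2.14 to -1.53). The Cables1 ratio lay inside the range of the other 3 pairs, and the Adra1d ratio slightly nearer to 0 than any of them. For Tppp the values were 45.9 (28 reads) and 40.2 (52 reads), a log2 ratio of -0.19 (interval -0.88 to 0.53), and for Plag1 they were 29.5 (18 reads) and 27.9 (36 reads), a log2 ratio of -0.08 (interval -0.94 to 0.82). With a trend with gene length removed, these log2 ratios were -0.31 for Tppp and -0.46 for Plag1, still inside the intervals. A difference in Tppp or Plag1 was thus not detectable at this depth in replicate 1 at 5 h, and for Tppp the interval excludes the fall seen in each of the other 3 pairs.

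The levels show where the pairs part. The tables of replicate 1 and of replicates 2 to 4 were normalized separately, so RPM values, the reads of a gene scaled by the library total alone, are used to set them side by side. Untreated Tppp stood at 2.03 RPM in replicate 1 at 5 h and at 7.41 to 17.02 in replicates 2 to 4, while treated Tppp stood at 1.90 and at 1.19 to 2.39. It was the untreated library that differed, and it already lay at the treated level. Untreated Plag1 was also lower in replicate 1 at 5 h, at 1.30 against 2.63 to 4.55 RPM, with treated levels of 1.31 against 0.616 to 2.15. Cables1 was at 5.93 against 4.86 to 5.39 untreated. Adra1d was at 17.4 against 23.0 to 54.5 untreated, and at 5.22 against 3.79 to 11.0 treated. The untreated 5 h library of replicate 1 is the one with 7.0% of its reads in ribosomal protein genes, whose part in these values was not tested. Untreated Tppp was at 1.47 to 2.16 RPM over the 4 times of replicate 1. Untreated Plag1 was at 2.35, 1.30, 3.91 and 6.15 RPM at 1, 5, 12 and 24 h, lowest in the 5 h library. Over all 4 pairs at 5 h the log2 ratio was -2.19 ± 1.37 for Tppp, -2.65 ± 0.60 for Cables1, -2.44 ± 0.76 for Adra1d and -1.02 ± 0.82 for Plag1 (SD, n = 4).

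The time course of replicate 1 separated the 4 genes further. Tppp in untreated cells was at 30.8, 45.9, 38.8 and 31.4 normalized counts at 1, 5, 12 and 24 h. In treated cells it was at 19.1, 40.2, 8.58 and 6.30, the last 2 values from 9 and 7 reads. The untreated course was flat within its counting error, with a log2 ratio of 24 h to 1 h of 0.03 (interval -0.66 to 0.72), while the treated level dropped between 5 and 12 h. Against its own 1 h level, treated Tppp was first higher at 5 h (log2 ratio 1.03, interval 0.12 to 2.16). It was at -1.07 at 12 h, with an interval that includes 0 (-2.61 to 0.25), and at -1.46 at 24 h (interval -3.21 to -0.10). The treated to untreated log2 ratio was -0.66 (interval -1.81 to 0.32) at 1 h, -2.05 (interval -3.38 to -1.14) at 12 h and -2.15 (interval -3.72 to -1.15) at 24 h. Tppp was thus 4.52-fold lower at 12 h and 4.98-fold lower at 24 h in treated cells of the replicate in which no difference was detectable at 5 h.

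Cables1 in untreated cells was at 85.3, 134, 89.3 and 80.4 normalized counts over the same times. In treated cells it was at 45.2, 27.9, 6.67 and 7.20, the last 2 from 7 and 8 reads. The untreated level was above that at 1 h at 5 h (log2 ratio 0.65, interval 0.21 to 1.10) and within counting error of it at 24 h (log2 ratio -0.08, interval -0.50 to 0.33), whereas the treated level at 24 h was 6.28-fold below its own 1 h level. The treated to untreated log2 ratio was -0.90 at 1 h (interval -1.60 to -0.28), -3.56 at 12 h (interval -5.09 to -2.66) and -3.31 at 24 h (interval -4.73 to -2.45). With a treated level 13.4-fold below the untreated one at 12 h, this was the largest difference of the 4 genes in replicate 1. A pseudocount of 10 brings the ratios at 12 and 24 h to -2.57 and -2.39.

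Adra1d followed another course. In untreated cells it climbed from 321 to 395, 799.9 and 1226 normalized counts at the 4 times, from 365, 241, 1093 and 1601 reads. In treated cells it was at 120.0, 111, 174 and 239, from 69, 143, 183 and 265 reads. Both courses went up by 24 h, by 3.82-fold in untreated and by 1.99-fold in treated cells, and the treated level at 24 h was still below the untreated level at 1 h. The log2 ratio was -1.41 already at 1 h (interval -1.81 to -1.04), the largest early difference of the 4 genes, then -2.19 at 12 h (interval -2.43 to -1.97) and -2.36 at 24 h (interval -2.55 to -2.17). The untreated 24 h to 1 h log2 ratio of 1.93 exceeded that of 99.1% of the 13498 genes whose mean in replicate 1 reached 10, and 7.02% of those genes had a ratio above 1. The small step from 1 to 5 h in untreated cells (log2 ratio 0.30) turned to -0.46 when a trend with gene length was removed.

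Plag1 went up in both conditions. Untreated cells held 49.2, 29.5, 70.3 and 108 normalized counts at 1, 5, 12 and 24 h, and treated cells 34.8, 27.9, 61.9 and 72.0. From 1 to 24 h the level grew 2.19-fold in untreated and 2.07-fold in treated cells. The treated to untreated log2 ratio was -0.49 (interval -1.32 to 0.26) at 1 h, -0.18 (interval -0.66 to 0.29) at 12 h and -0.58 (interval -0.999 to -0.18) at 24 h, so that the counting interval left out 0 at 24 h alone.

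**Figure D2:**
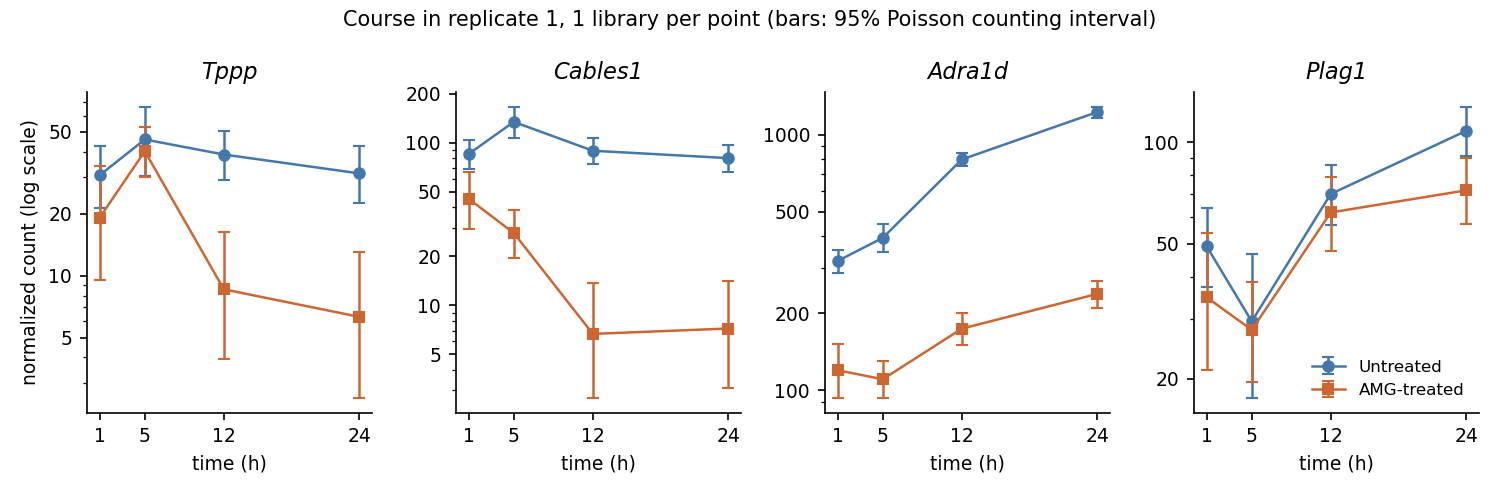
Normalized counts of the 4 genes in replicate 1 at 1, 5, 12 and 24 h on log axes, with 1 library per point and bars giving the 95% Poisson counting interval. Untreated Tppp stays level and untreated Cables1 peaks at 5 h (134) before returning to 80.4, the treated lines of both are at 6.30 and 7.20 at 24 h, both Adra1d lines climb at a distance, and the Plag1 lines lie close together.

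In replicate 1, all 16 ratios of the 4 genes lay below 0, and 8.05% of the 13498 genes had a ratio below 0 at all 4 times. A log2 ratio below -1 was found for 1 of the 4 genes at 1 h (10.7% of all genes), for 2 at 5 h (12.6%), for 3 at 12 h (6.9%) and for 3 at 24 h (8.05%). Tppp, Cables1 and Adra1d were below -1 at both 12 and 24 h, as were 4.01% of all genes. Among all genes, the ratio of Tppp lay at the 41.8th percentile at 5 h but at the 1.24th at 12 h and the 2.00th at 24 h. Cables1 was at the 0.141st percentile at 12 h, and Plag1 did not go below the 15.4th at any time. The sum of smooth muscle and pericyte markers also parted late in replicate 1, at 97430 untreated against 42151 treated at 12 h, and its part in the late ratios was not tested.

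**Figure D3:**
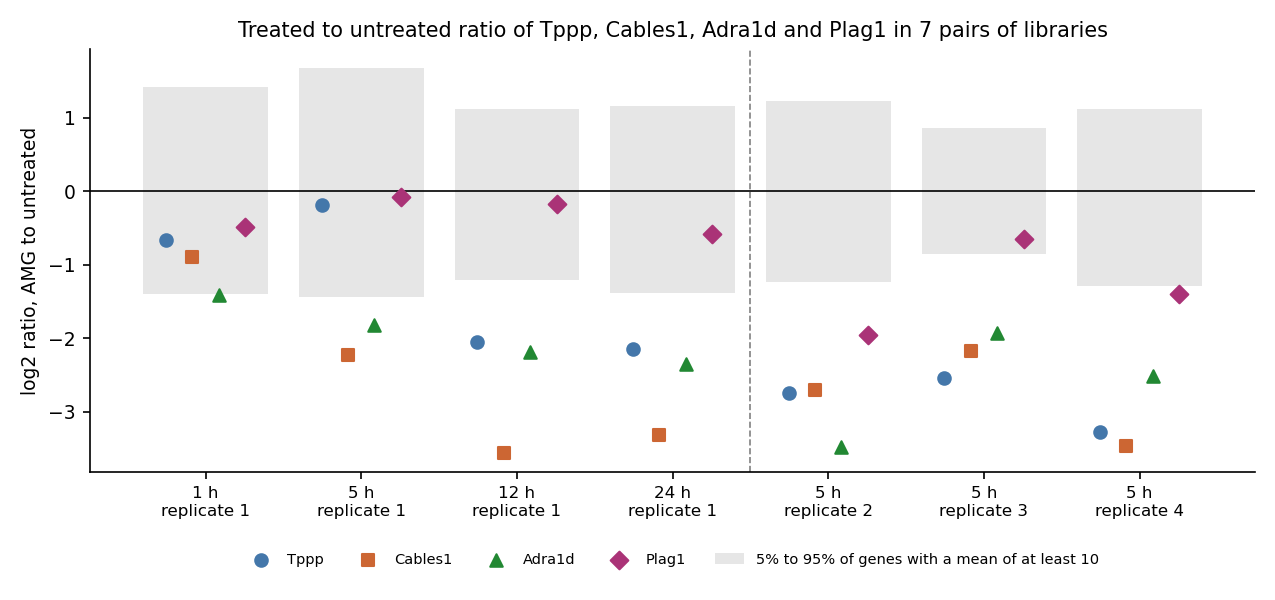
Log2 ratio of AMG-treated to untreated level for the 4 genes in each of 7 pairs of libraries, with grey boxes spanning the 5% to 95% quantiles of genes whose mean reached 10. Cables1 and Adra1d lie below the box in every pair from 5 h on, Tppp falls inside it in replicate 1 at 1 and 5 h, and Plag1 is inside it in all 4 pairs of replicate 1.

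Likeness between genes was measured as the root mean square difference of their log2 ratios over the 7 pairs of libraries, among 12844 genes. Closest to Tppp were Maf (0.534), Cacna1h (0.595) and Eya4 (0.687), against a median of 2.24 over all genes. Closest to Cables1 were Dio3os (0.513), Dio3 (0.571), which lies beside it on the other strand, and Bach2 (0.634). Closest to Adra1d were Stk26 (0.656), Dio3os (0.669) and Sertad4 (0.677), so that Dio3os stood near both. Among the 4 genes themselves, Cables1 and Adra1d differed by 0.827 and Tppp and Adra1d by 0.831, while Tppp and Cables1, which part at 5 h and later in replicate 1, differed by 1.07. Plag1 was farther from the others, at 1.40 to 2.10, and was nearest to Arhgap5 (0.156), Thbs1 (0.180) and Aph1b (0.181). The 7 pairs share no library with each other, but 4 of them come from replicate 1 and 4 from the same time. The pairs of replicates 2 to 4 also chose the 4 genes, so nothing is read from their likeness to each other.

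Close relatives of the 4 genes were tested at 5 h in replicates 2 to 4 by limma, with Benjamini-Hochberg adjustment over all 13096 genes. Tppp2 had no read in any library, where 3 reads would be a normalized count of at most 5.22. Tppp3, the other tubulin-binding relative, was at 26.0 ± 6.64 untreated and 49.5 ± 25.5 treated (log2 difference 0.81, limma adjusted p = 0.323, range 0.112 to 0.918 over the alternatives). In replicate 1 at 5 h the log2 ratio of Tppp3 was -1.65 (interval -2.09 to -1.24), the opposite sign, and with all 4 replicates the difference was 0.15. Cables2 was at 384 ± 73.1 and 348 ± 23.7 (log2 difference -0.13, limma adjusted p = 0.708, range 0.498 to 0.983). Of the other receptors of the alpha-1 class, Adra1a had at most 2 reads in a library, and Adra1b was at 117 ± 50.7 and 65.3 ± 42.4, with overlapping groups but a lower treated level in all 3 pairs (log2 difference -0.90, limma adjusted p = 0.353, and 0.0261 with the replicate number as a block, range 0.0200 to 0.677). Plagl1, which like Plag1 encodes a zinc finger factor, was also lower in all 3 pairs (log2 difference -0.58, limma adjusted p = 0.663, and 0.0296 with the block, range 0.0186 to 0.953). It was higher in replicate 1 at 5 h, however (log2 ratio 1.15, interval 0.87 to 1.46). Its difference ran from -1.37 without untreated replicate 3 to -0.07 without treated replicate 3, each with the other library of that number kept. The Plagl1 log2 ratios of the pairs in replicates 2, 3 and 4 were -0.97, -0.01 and -0.75. The 5 h ratios of Tppp3 and Plagl1 in replicate 1 rest on the untreated library with 7.0% of reads in ribosomal protein genes. The part of this share in both ratios was not tested. Plagl2 was at 0.17 (limma adjusted p = 0.712, range 0.189 to 0.925).

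Other genes of the pathways in which the 4 proteins act were taken from 4 lists, with the 4 genes left out. A gene was called at a limma adjusted p under 0.05 and an absolute log2 difference above 1, as 1.1% of the 13096 genes were (0.855% higher and 0.244% lower), and 8.32% with the replicate block. None of the 34 microtubule genes tested, of the 27 Cables and cyclin-dependent kinase genes, of the 30 adrenergic receptor and Gq signaling genes or of the 14 genes of the PLAG family and the IGF2 axis was called by limma. At an unadjusted limma p under 0.05 there were 8, 9, 9 and 1 of them, as there were 23.1% of all genes. edgeR called 0 in each list, and DESeq2 called Tuba1c higher and Trp63 and Ccne2 lower. The share of all genes called by edgeR or DESeq2 is not given here, so nothing is read from these counts. With the block, limma called 1 microtubule gene higher (Tuba1c), 3 genes of the Cables list lower (Trp63, Ccne2 and Wee1), and in the adrenergic list 1 higher (Rgs2) and 3 lower (Rgs4, Arrb1 and Dtna).

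The median log2 difference was -0.02 for the microtubule list, -0.15 for the Cables list, -0.49 for the adrenergic list and 0.07 for the PLAG list, beside -0.02 over all genes tested. In the adrenergic list 22 of 30 genes had a negative difference, beside 6758 of all 13096 genes, and 14 of the 30 were lower at an adjusted p under 0.05 with the block, as were 19.3% of all genes. Tppp lay below every other microtubule gene, whose lowest difference was -0.62. Since Tppp was chosen for its fall in this contrast, nothing is read from its place in the list. Among the tubulin genes, which encode the protein that TPPP binds, those named for a large difference between groups that did not overlap were Tuba1c (log2 difference 1.09), Tubb2a (0.96), Tubb2b (0.67) and Tubb6 (0.60). Others of the same list were near 0, with Tuba1a at -0.02, Tubb3 at -0.09, Tubb5 at 0.09 and Tuba1b at 0.19. For the 4 named first, the limma adjusted p values were 0.122, 0.151, 0.0688 and 0.130, and 0.000381, 0.000118, 0.00109 and 0.0025 with the block. In replicate 1 at 5 h, with 1 library a group, the log2 ratio was 0.17 for Tuba1c, 0.08 for Tubb2a, -0.21 for Tubb2b and 0.47 for Tubb6.

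The lowest value in the Cables list was that of Trp63, which encodes a p53 family transcription factor, at a log2 difference of -3.07 (limma adjusted p = 0.129, and 0.00377 with the block). Trp63 had means of 26.2 untreated and 2.45 treated, with at most 4 reads in a treated library, so it passed the filter on low values through the untreated group alone. Ccne2, a cyclin of S phase entry, was at -1.21 (0.094 and 0.00616) and Cdkn1b, which encodes the inhibitor p27, at -0.90 (0.175 and 0.00332), while Cdk5r1, an activator of Cdk5, was at 0.90 (0.277 and 0.0578). Beside Adra1d, Arrb1, a receptor-desensitizing arrestin, was at -1.19 (0.139 and 0.00159) and the calcium channel gene Itpr1 at -0.94 (0.0576 and 0.00121). Rgs2, which encodes a brake on Gq, was at 1.53 (0.133 and 0.0122), the opposite sign to the receptor. Beside Plag1, Igf1r, the receptor of insulin-like growth factors, was at -0.81 (0.112 and 0.00112) and Hmga2 at 0.43 (0.218 and 0.00685). Igf2 itself, the known target of Plag1, was under a mean of 10 and was not tested. In replicate 1 at 5 h, with 1 library a group, the log2 ratios of Igf1r (0.71) and Itpr1 (0.07) had the opposite sign. Those of Trp63 (-1.27), Ccne2 (-2.05), Cdkn1b (-1.60), Cdk5r1 (2.30), Arrb1 (-0.62), Rgs2 (0.34) and Hmga2 (0.95) had the same sign as in replicates 2 to 4.

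**Figure D4:**
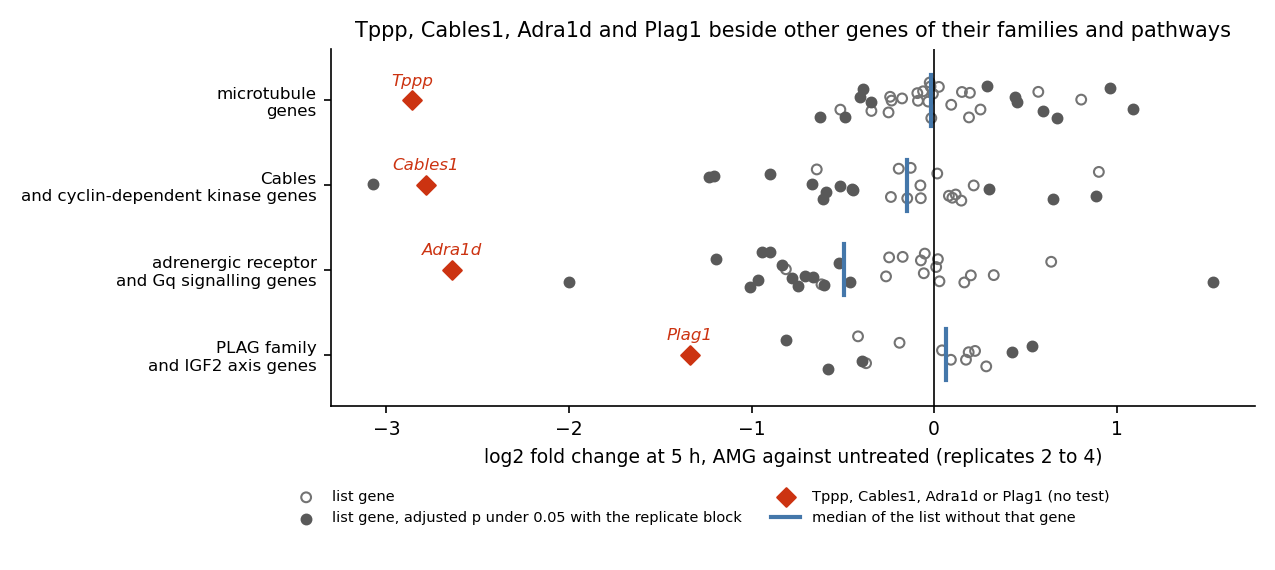
Log2 difference at 5 h in replicates 2 to 4 for the genes of the 4 pathway lists, with filled circles for those with an adjusted p under 0.05 under the replicate block, a blue line for the median of each list and red diamonds for Tppp, Cables1, Adra1d and Plag1, which have no test. The 4 diamonds, genes chosen for their fall in this contrast, lie at -2.86, -2.78, -2.64 and -1.34, and the adrenergic list has the lowest median (-0.49).

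The genes next to the 4 on the chromosome were read in the same fit. Of 13 annotated neighbors or overlapping genes, 11 were in the tables and 5 could be tested. Smox, which encodes spermine oxidase and lies 19.9 kb from Adra1d on the other strand, rose from 805 ± 142 to 4065 ± 1179 normalized counts (SD, n = 3), a log2 difference of 2.30 (SE 0.25, limma adjusted p = 0.0190, range 3.41e-14 to 0.124), opposite to Adra1d. It was also higher at all 4 times of replicate 1, with log2 ratios of 0.85, 1.73, 2.24 and 1.94. The call was lost without untreated replicate 2 or 4 or without treated replicate 2 or 4, where the adjusted p reached 0.124 at most.

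Cep72, a centrosomal protein gene that ends 0.747 kb after the end of Tppp on the other strand, was at 121 ± 37.2 untreated and 30.2 ± 6.01 treated, the same sign as Tppp. Its log2 difference was -1.93 (SE 0.34, limma adjusted p = 0.0540, and 0.00132 with the block, range 6.59e-05 to 0.242). In replicate 1 the Cep72 log2 ratios were -0.43, -0.50, -2.64 and -1.20 at 1, 5, 12 and 24 h, beside -0.66, -0.19, -2.05 and -2.15 for Tppp. The library kit marks strand, but the strand setting of the counting is not given in the sources used here, so reads running past the end of one gene could be counted for the other. Tmem241, 18.8 kb after Cables1, was at -0.69 (limma adjusted p = 0.147, and 0.0256 with the block). Chchd7, which starts 0.465 kb from the start of Plag1 in the opposite direction, was at 0.41 (limma adjusted p = 0.587), and Gm15912, 0.053 kb before Tppp, at -0.22 (limma adjusted p = 0.894). Antisense genes overlap Cables1 (Gm6277) and Adra1d (Gm14285), both with a mean under 10.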

How the data were processed

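Poly(A) libraries (TruSeq Stranded mRNA, HiSeq4000) were made by the authors from 14 cultures. Per the labels, reads were checked with FastQC 0.11.5, aligned to mm10 with TopHat2 2.0.13 and SAMtools 0.1.19.24, counted per gene with HTSeq 0.5.3p3 and normalized with DESeq. The annotation and strand setting are not given in the sources used here. The deposited values are a normalized signal, read counts divided by a size factor, in 2 tables scaled separately (8 libraries of replicate 1, 6 of replicates 2 to 4). They contain no columns of other samples and no rows without a gene. Whole read counts were recovered for 100% of values within 0.1 reads of a whole number. Library totals ran from 12545537 to 34696529 reads.

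Genes with a mean of at least 10 were fitted with limma 3.58.1 (trend, R 4.3.3) on log2(normalized count + 1), untreated against AMG-treated at 5 h, replicates 2 to 4, and called at an adjusted p under 0.05 and an absolute log2 difference above 1. A pseudocount understates the change of low genes. The labels call the replicates biological without naming separate animals, so p-values measure the spread between these samples. Libraries of the same number deviated together (r = 0.65, 0.76 and 0.70; other pairings -0.59 to 0.12, over genes), so the numbers pair the libraries, and a replicate block was the main alternative. Others were pseudocounts of 0.1 and 10, filters, upper quartile scaling, edgeR 4.0.16 and DESeq2 1.42.0 on recovered reads, a length correction (lengths for 95.1% of genes) and leaving out each library. Counting intervals at 95% are exact, binomial for ratios and Poisson for levels. Coordinates and lengths come from GENCODE vM21. The fits were tested on simulated data. Adra1d and Plag1 were matched to no promoter. Named genes are the 4 genes, their relatives, chromosomal neighbors, the 3 genes most like each, and in each list the called genes and the 4 with the largest difference among those whose groups did not overlap. Some genes that this rule names are not reported here. Rgs4, Dtna and Wee1 were added for their calls under the block. The 4 genes and all lists were chosen with earlier results of these data known.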

Additional observations from a re-analysis of the deposited data

How the results depend on the processing

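At 5 h the 4 genes kept their sign under every alternative run. This contrast chose them and their groups did not overlap, so leaving out a library or changing the pseudocount could not reverse the sign. Leaving out 1 library at a time moved the log2 difference between -3.24 and -2.63 for Tppp, -3.02 and -2.48 for Cables1, -3.07 and -2.37 for Adra1d and -1.66 and -0.83 for Plag1 (the last without treated replicate 2). Adding replicate 1 (edgeR, all 4 replicates, replicate block) gave -2.27 for Tppp. In replicate 1, a pseudocount of 10 gave -2.57 and -2.39 for Cables1 at 12 and 24 h, and the length correction gave -1.94 and -1.27 for Adra1d at 1 and 5 h and -0.46, a reversed sign, for its untreated 5 h to 1 h ratio. The cause was not tested for these. Among list genes, limma called 0. With the replicate block, which follows the pairing of the libraries, it called 1 microtubule gene higher, 3 Cables list genes lower, and 1 adrenergic list gene higher and 3 lower. For the settings that follow, the share called among all genes is not given here, so nothing is read from their counts. edgeR with the block gave the same 1, 3, 1 and 3. DESeq2 called 1 microtubule gene higher and 2 Cables list genes lower, edgeR on all 4 replicates with the block 2 Cables list and 1 adrenergic list gene lower, and the length correction with the block 3 Cables list genes lower and 1 adrenergic list gene each way. Leaving out 1 library gave 0 to 2 microtubule genes higher, 0 to 1 higher and 0 to 2 lower in the Cables list, and 0 to 4 lower in the adrenergic list, each upper count without treated replicate 3 and each other count 0. Among the neighbors, Smox made a count of 0 to 1 higher (0 without replicate 2 or 4 of either group) and Cep72 of 0 to 1 lower (1 without treated replicate 3) when 1 library was left out, and Cep72 made 1 lower with the block, with edgeR or the length correction with the block, and with DESeq2. Of 336 alternative values, 301 were classed as the same as the main value, 6 moved beyond its pair SD or counting interval, and 1 reversed its sign. The others were counts of called genes, 24 of them larger and 4 smaller than the main count. The 301 include counts that stayed at 0 and, within its pair SD, the -0.83 of Plag1, so the tally does not measure robustness. Depth limits Tppp and Cables1 at 12 and 24 h, where treated libraries held 7 to 9 reads.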
